A study of Mus musculus with 19 samples.

Results

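A set of 9 genes that mark the oligodendrocyte lineage was followed in the fetal mouse cortex: the transcription factors Olig1, Olig2, Nkx2-2 and Sox10, the surface proteins Pdgfra, Cspg4 and Gpr17, and the myelin genes Cnp and Mbp. Every probe set that the deposited annotation assigned to 1 of these symbols was taken, which gave 23 of the 45101 probe sets on the array for 9 of the 23341 symbols annotated. The authors' table called 16 of the 23 present and 7 absent, the absent ones being 5 of the 8 for Mbp, 1 of the 3 for Sox10 and 1 of the 3 for Pdgfra. Olig1, Olig2, Nkx2-2 and Gpr17 had 1 probe set each, Cspg4 had 2 and Cnp had 3.

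RNA came from the cerebral cortex of single wild-type fetuses of C57BL/6 dams on gestational day 16, with 1 array per fetus and 19 arrays in 4 groups. In the hypo+ group (5 arrays) the dams drank goitrogens, drugs that block hormone production by the thyroid, and were injected with 25 µg T4 and 2.5 µg T3 per 100 g. In the hypo group (5 arrays) they drank the goitrogens and were injected with vehicle. The hyper group (4 arrays) had no goitrogen and a dose of 100 µg T4 and 10 µg T3 per 100 g, and the control group (5 arrays) had no goitrogen and vehicle. The water of all 4 groups held 2% sucrose from gestational day 13, and all dams had a single injection 12 hours before they were killed. Treatment text in the labels gives the goitrogens as 1% perchlorate with 0.025% methimazole, whereas other label fields name propylthiouracil. The hormone was given to the dam, so the dose that reached the fetal cortex was not measured. The labels give 20 dams, 5 for each group, but do not tie arrays to dams, and p-values reflect only the spread among the fetuses measured.

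Oligodendrocytes make the myelin of the central nervous system. In the mouse forebrain the first of their precursors arise ventrally, in zones patterned by Shh, before birth, and migrate into the cortex, where most of the cells mature and form myelin only after birth. Olig2 and Olig1 specify the lineage and Sox10 maintains it, Pdgfra and Cspg4 (NG2) mark the dividing precursor, Gpr17 marks a transitional stage, and Cnp and Mbp mark cells that differentiate. Thyroid hormone, acting through nuclear receptors, is known to drive precursors out of the cell cycle and towards differentiation, and myelin genes are reduced in hypothyroid young rodents. Several of these genes are also used elsewhere: Olig1 and Olig2 in neural progenitors, Nkx2-2 in the hypothalamus, Pdgfra in meningeal cells, Cspg4 in pericytes, and the Mbp locus, through its golli transcripts, in neurons.

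The median signal per array was 73.1 to 106 units. Precision is limited by the 4 or 5 arrays per group. Klf9, a gene that thyroid hormone induces directly, had 449 to 765 signal units on hyper arrays, against 107 to 164 on control arrays, and 149.5 to 205 on hypo+ arrays, against 138 to 155 on hypo arrays. All fetuses were labelled female, but hypo+ replicate 1 and hyper replicate 4 had low Xist (68.8 and 97.2) and high Ddx3y, a gene of the Y chromosome (696 and 547), where the other 17 arrays had Xist of at least 3145 and Ddx3y of at most 13.3. The called probe sets of the 9 genes, Olig1, Olig2 and the relations across arrays are also given with both of these arrays left out. Of the other genes named with a call, only Lhfpl3 lost it in that setting. Of the dorsal cortex markers measured, such as Tbr1 and Emx1, 10 of 10 were called present, as were 28420 of all 45037 probe sets. Markers of other regions were called present too, among them 14 of 15 ventral forebrain and GABAergic genes and 6 of 7 choroid plexus genes. These calls therefore do not show that the samples held cortex alone.

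Among the 9 genes, Cnp and Mbp each had 1 probe set that was higher past the threshold in the hypo+ cortex than in the hypo cortex. With limma's test adjusted over 45037 probe sets, 2 of the 23 probe sets passed an adjusted p of 0.05, both higher in hypo+. They were 1 of the 3 for Cnp and 1 of the 8 for Mbp, and with 1 value a gene only Cnp passed. Of all probe sets 3.16% passed in this comparison, and 2.03% passed as higher. At an unadjusted p under 0.05 there were 5 of the 23, where 17% of all probe sets reached it. Log2 differences were taken on the log2(signal + 32) scale, which understates changes of dim probe sets. The median log2 difference of the 16 present probe sets was 0.15, with 10 positive, where that of all present probe sets was 0.01, with 53.1% positive. In these bulk samples fewer cells of a type and less RNA per cell cannot be told apart.

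**Figure D1:**
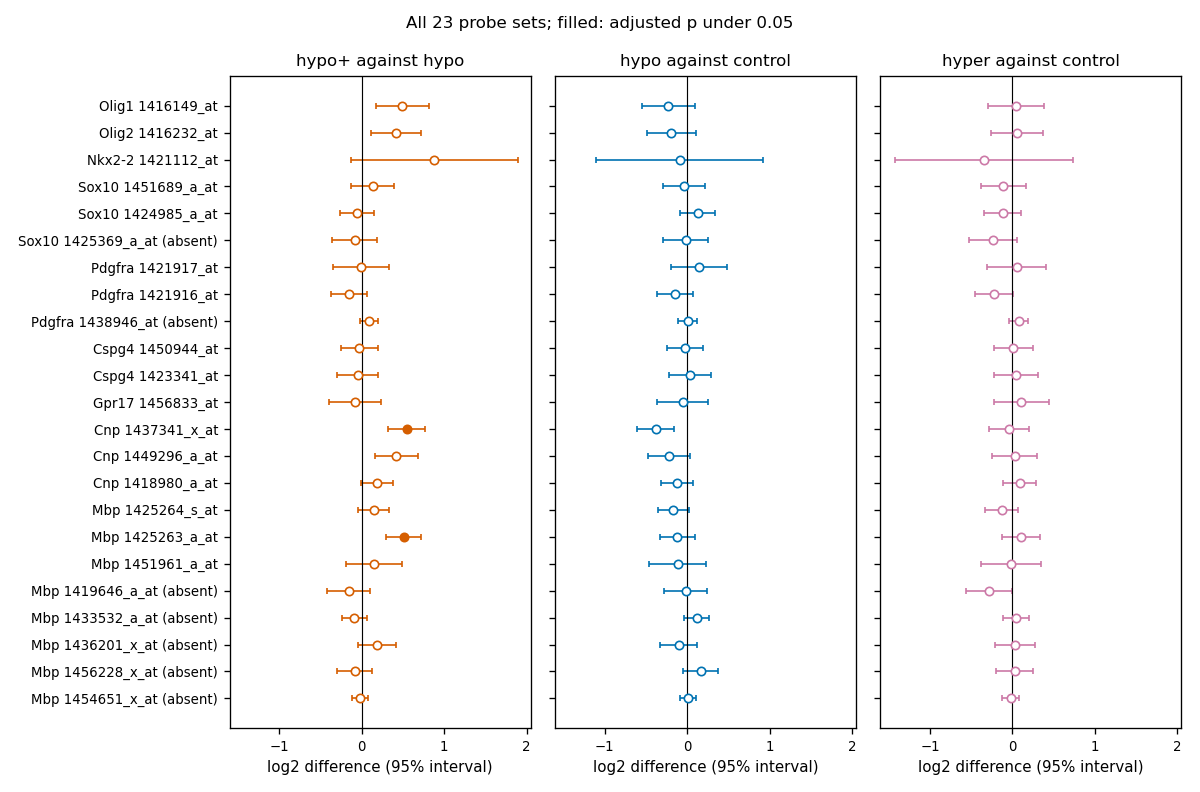
Log2 difference of each of the 23 probe sets, with its 95% interval, in hypo+ against hypo, hypo against control and hyper against control. Filled points passed an adjusted p of 0.05: 1 Cnp and 1 Mbp probe set in hypo+ against hypo, and none in the other 2 comparisons.

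Olig1 encodes a basic helix-loop-helix factor needed for precursors to mature. Its signals were 499, 438, 417, 580.1 and 702 in hypo+ fetuses, against 275, 381, 329.5, 526 and 329 in hypo fetuses. They were 399, 480.0, 524 and 374 in hyper fetuses, against 359.9, 418, 424, 491 and 455 in control fetuses. The hypo+ and hypo groups overlapped through hypo replicate 4, which was above 3 of the 5 hypo+ arrays. The log2 difference of hypo+ against hypo was 0.49 (SE 0.15) with an adjusted p of 0.0885, so Olig1 did not pass. Without hypo replicate 4 it was 0.62 with an adjusted p of 0.0217, the only 1 of 31 alternatives in which Olig1 passed. With both Y-positive arrays left out it was 0.50 with an adjusted p of 0.124. Hyper differed from control by a log2 difference of 0.04, with a 95% interval of -0.30 to 0.38.

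Olig2, the related factor on which the whole lineage depends, had signals of 246, 265, 314, 278 and 238 in hypo+ fetuses, against 228, 225, 167, 159 and 191 in hypo fetuses. All 5 hypo+ arrays were above all 5 hypo arrays. The log2 difference was 0.41 (SE 0.14) and its adjusted p of 0.123 missed the threshold. Quantile normalization brought it to 0.0430 with a difference of 0.39, the only 1 of 31 alternatives in which Olig2 passed. With both Y-positive arrays left out the difference was 0.44 with an adjusted p of 0.140. Hyper arrays had 269, 234, 246 and 194, against 311, 155, 180.3, 239 and 267 on control arrays. The control group spanned the values of all the other groups except 1 array, hypo+ replicate 3, and the interval of hyper against control was -0.26 to 0.37. Olig1 and Olig2 are neighbours on chromosome 16 of the GRCm38.p6 annotation, with 1 non-coding gene between them.

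Nkx2-2, a homeodomain factor that promotes differentiation of precursors and also patterns the ventral brain, varied widely within groups. Its signals were 189.7, 19.6, 253, 260.4 and 125 in hypo+ fetuses, against 38.2, 37.9, 75.3, 214 and 22.6 in hypo fetuses. Hyper fetuses had 20.2, 74.5, 94.6 and 21.2, against 139, 116, 40.2, 53.4 and 30.3 in control fetuses. Each pair of groups overlapped. The log2 difference of hypo+ against hypo was 0.88 (SE 0.48, adjusted p 0.377), and that of hypo+ against hyper was 1.14 (SE 0.51, adjusted p 0.471).

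Markers of the hypothalamus and thalamus varied on the same arrays. The summed signal of 8 such genes, among them Sim1, Otp and Tcf7l2, was 3124, 538, 1527, 3271 and 1867 on hypo+ arrays, against 2203, 1019, 1458, 922 and 518 on hypo arrays. It was 527, 1933, 1365 and 598 on hyper arrays, against 3038, 518, 485, 942 and 563 on control arrays. The brightest of these genes were Lhx9, with mean signals of 813 in hypo+ against 501 in hypo, and Tcf7l2, with 704 against 359. Means were also higher in hypo+ for Gbx2 (238 against 124), Sim1 (113 against 34.9) and Hmx2 (35.2 against 26.02). They were lower for Otp (55.03 against 61.44) and Rax (49.9 against 60.4), and nearly level for Nr5a1 (57.7 against 56.8). By limma 0 of the 8 passed in hypo+ against hypo, where 3.16% of all probe sets did. Of the 8, 1 had an unadjusted p under 0.05, where 17% of all probe sets did. Of the 8, 5 were positive with a median log2 difference of 0.40, and 2 of them, Nr5a1 and Hmx2, were called absent. Their part in the Nkx2-2 values was not tested.

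Sox10, a high-mobility-group factor that activates myelin genes, did not pass in any comparison. Its brightest probe set averaged 144 ± 30.6 in hypo+ fetuses and 129 ± 28 in hypo fetuses (SD, n = 5 each). The mean was 119 ± 6.75 in hyper fetuses (SD, n = 4), against 132 ± 20.1 in control fetuses (SD, n = 5). Its 3 probe sets had log2 differences between -0.08 and 0.13 in hypo+ against hypo, and the groups overlapped for each.

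Pdgfra, the receptor through which PDGF-A keeps precursors dividing, had much the same range in hypo+ and hypo. The brightest probe set gave 387, 414, 475, 574 and 352 in hypo+ fetuses, against 304, 487, 425, 425 and 584 in hypo fetuses, and the groups overlapped over nearly their whole range. The log2 difference was -0.00 (SE 0.16), with an interval of -0.34 to 0.34. A second present probe set was lowest in hypo+, with 103, 135, 115, 112 and 114, against 140.3, 147, 128, 167 and 171 in control fetuses. Its log2 difference of hypo+ against control was -0.30 (SE 0.10) and did not pass (adjusted p 0.125). With each array centred on its median it was -0.40 and passed (adjusted p 0.0441), so this call depends on the scaling.

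Cspg4, the NG2 proteoglycan of the precursor surface, had log2 differences of -0.05 and -0.03 in its 2 probe sets in hypo+ against hypo. The brighter one averaged 117 ± 15.6 in hypo+ fetuses and 119 ± 5.35 in hypo fetuses (SD, n = 5 each). Gpr17, a receptor of cells about to differentiate, was dim, with 34.9 to 71.3 signal units in hypo+ fetuses, against 42.4 to 73.7 in hypo fetuses. Its log2 difference was -0.08 (SE 0.15), and neither gene passed in any comparison.

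Meningeal and pericyte markers were measured because those cells carry Pdgfra and Cspg4. In hypo+ against hypo 0 of 9 meningeal and 0 of 7 pericyte genes passed by limma, where 3.16% of all probe sets did. In that order 0 and 1 had an unadjusted p under 0.05, where 17% of all probe sets did. All 16 were called present. The summed pericyte signal was 3146 to 3859 on hypo+ arrays, against 2893 to 3859 on hypo arrays. The summed meningeal signal was 5121 to 6669 on hypo+ arrays, against 4469.9 to 9729 on hypo arrays, and 1 hyper array stood out at 17880, where control arrays had 4505 to 6695. The part of these cells in the Pdgfra and Cspg4 signals was not tested.

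**Figure D2:**
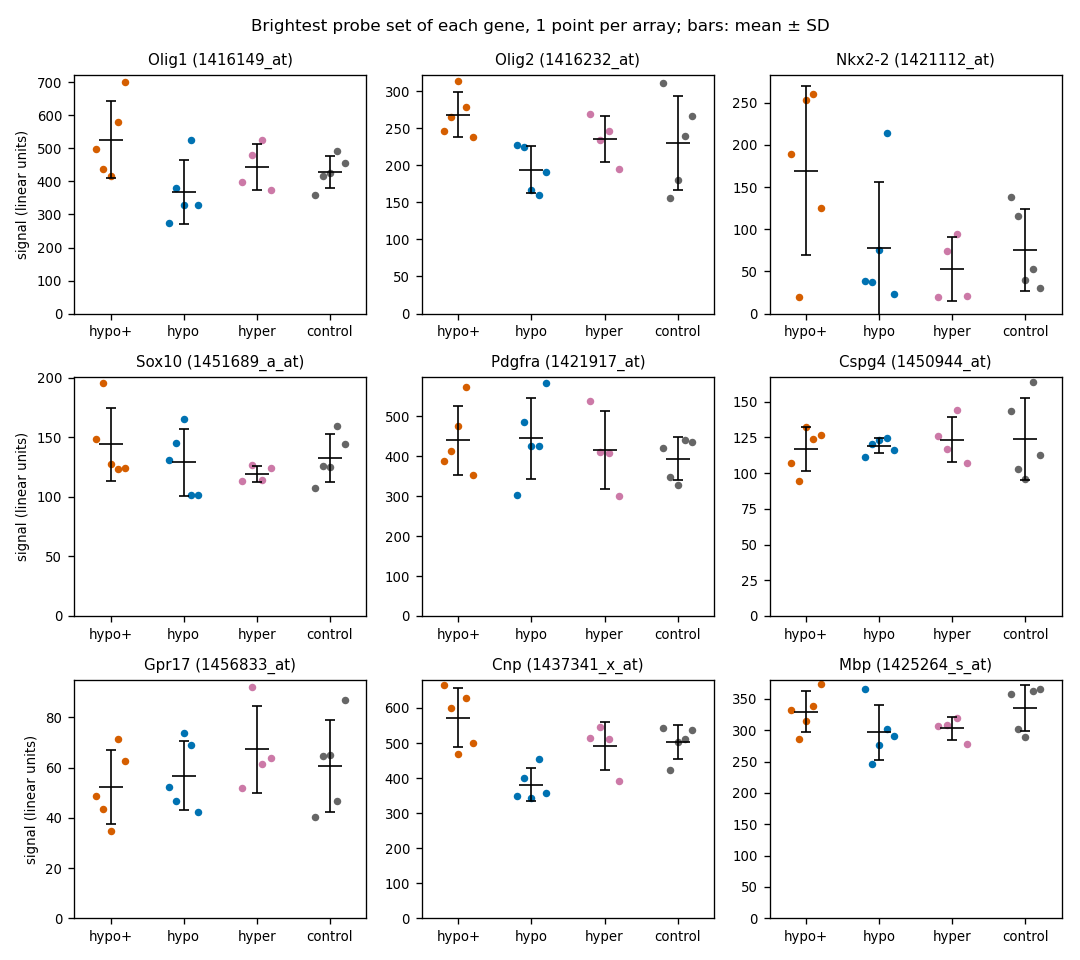
Signal of the brightest probe set of each of the 9 genes on each of the 19 arrays, with the mean and SD of each group, in hypo+, hypo, hyper and control fetuses. Olig2 and Cnp have all hypo+ arrays above all hypo arrays, whereas Pdgfra, Sox10, Cspg4 and Gpr17 overlap.

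Cnp encodes the myelin enzyme 2',3'-cyclic nucleotide 3'-phosphodiesterase, among the earliest myelin proteins made by differentiating cells. Its brightest probe set, 1437341_x_at, had signals of 664, 600.5, 469, 628 and 499 in hypo+ fetuses, against 348, 400.0, 343, 454 and 357 in hypo fetuses. Hyper fetuses had 514, 547, 512 and 392, against 544, 422, 503, 512 and 538 in control fetuses. All 5 hypo+ arrays were above all 5 hypo arrays, whereas hyper and control covered much the same range between them. The mean was 572 ± 84.2 in hypo+ fetuses and 380.5 ± 46.9 in hypo fetuses (SD, n = 5 each), a log2 difference of 0.55 (SE 0.11, adjusted p 0.0119). Without the 2 arrays with Y-linked signal it was 0.49 with an adjusted p of 0.0179.

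The other 2 Cnp probe sets differed in the same direction by less and did not pass. For 1449296_a_at the signals were 296, 172, 208, 209 and 233 in hypo+ fetuses, against 185, 170.3, 159.8, 127 and 147 in hypo fetuses, with a log2 difference of 0.42 (SE 0.12, adjusted p 0.0698). For 1418980_a_at the log2 difference was 0.18 (SE 0.09, adjusted p 0.318). The groups of both probe sets overlapped by 1 hypo array or more. The averaged value of the 3 probe sets passed, with a log2 difference of 0.38 and an adjusted p of 0.0191.

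Mbp encodes myelin basic protein, which compacts the myelin sheath. Its probe set 1425263_a_at had signals of 217, 199, 201, 188 and 186 in hypo+ fetuses, against 127, 134, 148, 127 and 115 in hypo fetuses. Hyper fetuses had 158, 161, 171 and 138, against 143, 101, 133, 160.3 and 194 in control fetuses. The 5 hypo+ arrays lay above every hypo and every hyper array, and above 4 of the 5 control arrays. The log2 difference of hypo+ against hypo was 0.51 (SE 0.10, adjusted p 0.0132), and without the 2 arrays with Y-linked signal it was 0.48 with an adjusted p of 0.0316.

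The 8 Mbp probe sets disagreed with each other. The brightest, 1425264_s_at, had 333, 286, 315, 339 and 374 in hypo+ fetuses, against 366, 247, 277, 301 and 291 in hypo fetuses, with a log2 difference of 0.14 (SE 0.09, adjusted p 0.464). The third present probe set, 1451961_a_at, had a difference of 0.15 (SE 0.16, adjusted p 0.728). The 5 absent probe sets had signals of at most 83.9 on any array and differences between -0.16 and 0.19, none of which passed. The sources used here do not say which of the locus's transcripts each probe set detects. With 1 value a gene, taken from the brightest probe set or from the mean of all 8, Mbp did not pass and Cnp was the 1 gene of the 9 that did.

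**Figure D3:**
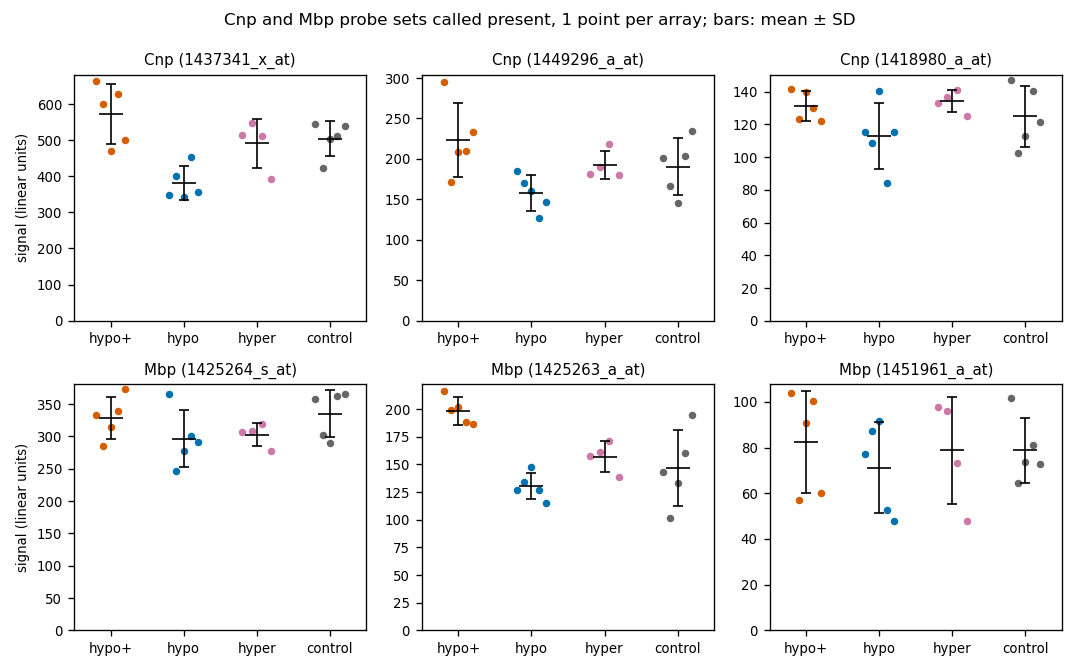
Signals of the 6 Cnp and Mbp probe sets called present, by array, with the mean and SD of each group. Only Cnp 1437341_x_at and Mbp 1425263_a_at have hypo+ arrays all above hypo arrays.

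Olig2, Cnp 1437341_x_at and Mbp 1425263_a_at were thus the 3 of 23 probe sets whose hypo+ and hypo arrays did not overlap, all higher in hypo+, where 3.33% of all probe sets did so. In the authors' deposited table the same Cnp and Mbp probe sets were the 2 of 23 under an adjusted permutation p of 0.05 in this comparison, where 4.84% of all probe sets were. The authors' deposited table gives Cnp 1437341_x_at a fold of 1.5 (adjusted p 0.0028), Mbp 1425263_a_at a fold of 1.53, Olig1 a fold of 1.44 (adjusted p 0.0657) and Olig2 a fold of 1.39 (adjusted p 0.1042).

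The promoters of Cnp, which passed, and of Olig2, whose groups did not overlap, are shown to make the searched sequence visible, the choice of Olig2 having been made after its values were seen. Both run from 250 bases before to 50 bases after the gene's start, on the plus strand, from RefSeq on GRCm38.p6, at chr11:100574689-100574988 for Cnp and at chr16:91225300-91225599 for Olig2. They were searched on both strands for AGGTCA, the half-site bound by the thyroid hormone receptor, and for the E-box CANNTG, to which basic helix-loop-helix proteins bind. Capitals mark the E-box.
Cnp: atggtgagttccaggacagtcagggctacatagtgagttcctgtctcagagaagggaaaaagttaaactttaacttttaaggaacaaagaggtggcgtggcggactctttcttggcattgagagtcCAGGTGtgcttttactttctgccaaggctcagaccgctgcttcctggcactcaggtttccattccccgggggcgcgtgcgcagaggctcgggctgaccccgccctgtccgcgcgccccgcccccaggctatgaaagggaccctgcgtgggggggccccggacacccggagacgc
Olig2: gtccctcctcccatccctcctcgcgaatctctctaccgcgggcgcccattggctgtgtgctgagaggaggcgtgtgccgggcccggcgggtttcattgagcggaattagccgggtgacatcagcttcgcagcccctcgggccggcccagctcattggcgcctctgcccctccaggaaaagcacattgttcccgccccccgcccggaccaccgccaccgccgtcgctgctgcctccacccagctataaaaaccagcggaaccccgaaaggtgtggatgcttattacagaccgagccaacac
The Cnp window held 1 E-box, CAGGTG, and the Olig2 window held none. AGGTCA was in neither window, nor in those of Nkx2-2, Pdgfra and Cspg4, the other 3 of the 5 genes matched. Over 32851 mouse promoters of this length 16.3% held AGGTCA and 72.3% held CANNTG.

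Against control, hypo+ was higher for 1 of the 23 probe sets, Mbp 1425263_a_at, where 3.11% of all probe sets passed and 1.21% passed as higher. Its log2 difference was 0.39 (SE 0.10, adjusted p 0.0468). In the authors' deposited table it was the 1 of 23 that passed too, where 4.27% of all probe sets did, with a fold of 1.38 and an adjusted p of 0.0332. The call by limma was lost in 22 of 29 alternatives, with adjusted p between 0.0163 and 0.139. When 1 array at a time was left out it held only without control replicate 4, control replicate 5, hypo replicate 5 or hyper replicate 4, and with both Y-positive arrays left out the difference was 0.36 with an adjusted p of 0.0867. Cnp 1437341_x_at had a difference of 0.17 (SE 0.11, adjusted p 0.478), Olig1 of 0.26 (SE 0.15, adjusted p 0.427) and Olig2 of 0.22 (SE 0.14, adjusted p 0.477).

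Goitrogen alone, hypo against control, gave 0 of 23 probe sets under an adjusted p of 0.05 by limma, where 0% of all probe sets passed. At an unadjusted p under 0.05 it gave 1 of 23, where 8.19% of all probe sets reached it. That was Cnp 1437341_x_at, at -0.38 (SE 0.11, unadjusted p 0.00243, adjusted p 0.331), with 4 of 5 hypo arrays below every control array. Of the 16 present probe sets 3 had a positive difference, with a median of -0.12, where 41.4% of all present probe sets were positive. Olig1 was at -0.23 (SE 0.15, adjusted p 0.781) and Olig2 at -0.19 (SE 0.14, adjusted p 0.812). Hypo+ against hypo and hypo against control share the hypo arrays, so an array low in hypo enters both.

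Hormone alone, hyper against control, gave 0 of 23 under an adjusted p of 0.05 by limma, where 0.175% of all probe sets passed, and 1 of 23 at an unadjusted p under 0.05, where 10.5% reached it. The 1 was an absent Mbp probe set at -0.28 (SE 0.13, unadjusted p 0.0493). Cnp 1437341_x_at was at -0.04, with an interval of -0.28 to 0.20, and Mbp 1425263_a_at at 0.10, with an interval of -0.13 to 0.33. Both intervals end below the differences of hypo+ against hypo, 0.55 and 0.51. Those had intervals of their own, 0.32 to 0.77 for Cnp and 0.29 to 0.72 for Mbp, where that of Mbp overlaps its hyper interval. The 2 probe sets were chosen because they passed in hypo+ against hypo, so this is no test of a contrast. The direct test, given next, passed for neither. The dose was higher in hyper than in hypo+ but from another starting state.

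The difference between both hormone responses, (hypo+ minus hypo) minus (hyper minus control), was tested as such. It gave 0 of 23 by limma, where 0.0133% of all probe sets passed, and 3 of 23 at an unadjusted p under 0.05, where 6.49% reached it. The 3 were Cnp 1437341_x_at at 0.59 (SE 0.16, unadjusted p 0.00153, adjusted p 0.506), Mbp 1425263_a_at at 0.41 (SE 0.15, adjusted p 0.641) and Cnp 1449296_a_at at 0.39 (SE 0.18, adjusted p 0.748). A larger response in hypo+ was therefore not shown for any of the 9 genes after adjustment.

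Hypo+ against hyper gave 0 of 23 by limma, where 0.0377% of all probe sets passed, and 2 of 23 at an unadjusted p under 0.05, where 10.1% reached it. They were Nkx2-2, given above, and Mbp 1425263_a_at, at 0.29 (SE 0.11, adjusted p 0.382). Mbp 1425263_a_at was the 1 of 23 whose hypo+ arrays all lay above the hyper arrays, where 1.04% of all probe sets did so. In the authors' deposited table the direct comparison of hypo against hyper also had 0 of 23, where 2.15% of all probe sets passed.

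Over the 16 present probe sets the mean signal was highest in hypo+ for 8, where that was so for 21.8% of all present probe sets, and lowest in hypo for 8, where that was so for 34.2%. Probe sets of the same gene are not independent. Those lowest in hypo were Olig1, Olig2, all 3 of Cnp and the 3 present ones of Mbp, and none of the other genes. For Cnp 1437341_x_at the order was hypo+ (572), control (504), hyper (491) and hypo (380.5), and neither hypo+ and control nor hyper and control differed past the threshold. Hypo against hyper was not fitted by limma, and in the authors' deposited table it had an adjusted p of 0.1457 for this probe set. For Mbp 1425263_a_at the order was hypo+ (198), hyper (157), control (146) and hypo (130.2), and neither hyper nor hypo differed from control past the threshold. Its adjusted p of hypo against hyper in the authors' deposited table was 0.3691. Olig1 and Olig2 had the order hypo+, hyper, control and hypo, with no neighbours past the threshold.

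Genes that act in the same lineage were measured as 5 lists, each gene by its brightest probe set. Among 19 lineage regulators 0 passed in hypo+ against hypo by limma, where 3.16% of all probe sets did. The 19 had a median log2 difference of 0.01, with 11 positive. At an unadjusted p under 0.05 there were 5, where 17% of all probe sets reached it. Those with the smallest p were Tcf4, a partner of the Olig factors, at -0.39 (SE 0.12, adjusted p 0.0783) and Chd8, a chromatin remodeller, at 0.15 (SE 0.05, adjusted p 0.158). Among 11 inhibitors of the lineage 3 had an unadjusted p under 0.05 by limma, where 17% of all probe sets reached it, and the median was 0.04. After adjustment 1 fell, where 508 of all 45037 probe sets did, and 0 rose. The 1 was Id2, which binds and blocks helix-loop-helix partners. Id2 averaged 1828 ± 287 in hypo+ fetuses and 2710.0 ± 228 in hypo fetuses (SD, n = 5 each), a log2 difference of -0.57 (SE 0.14, adjusted p 0.0321). It was lower in hypo+ than in control too, at -0.73 (SE 0.14, adjusted p 0.0104), where 3.11% of all probe sets passed in either direction. The first of these calls held in 21 of 31 alternatives and the second in 29 of 31.

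Of 20 inducing signals and their receptors 2 rose, where 2.03% of all probe sets did, 0 fell and the median was -0.04. At an unadjusted p under 0.05 by limma there were 5 of the 20, where 17% of all probe sets reached it. Ptch1, the Shh receptor and itself a transcriptional target of Shh signalling, averaged 1273 ± 122 in hypo+ fetuses and 807 ± 175 in hypo fetuses (SD, n = 5 each), a log2 difference of 0.65 (SE 0.12, adjusted p 0.00756). Shh averaged 377 ± 65.9 in hypo+ fetuses and 240.5 ± 59.8 in hypo fetuses (SD, n = 5 each), at 0.59 (SE 0.16, adjusted p 0.0488), a call that held in 11 of 31 alternatives where that of Ptch1 held in 31 of 31. Other genes of the Shh pathway in this list did not rise with them. Mean signals in hypo+ against hypo were 69.9 against 73.5 for Gli1 and 502 against 504 for Gli2. They were 721 against 855 for Gli3 and 455 against 516 for Smo. Shh signalling itself was not tested. Pdgfa, the ligand of Pdgfra, was at -0.03 (SE 0.07, adjusted p 0.884).

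Of 16 precursor surface and matrix genes 2 rose, where 2.03% of all probe sets did, and 1 fell, where 508 of all 45037 did. The median was 0.07. At an unadjusted p under 0.05 by limma there were 8 of the 16, where 17% of all probe sets reached it. Lhfpl3, a membrane protein gene, was higher at 0.61 (SE 0.16, adjusted p 0.0439, held in 16 of 31 alternatives, lost with both Y-positive arrays left out, at 0.0661). Ncan, a matrix proteoglycan also made by neurons, was higher at 0.44 (SE 0.10, adjusted p 0.0258, held in 25 of 31). Cd9, a tetraspanin also made by other cells, averaged 479 ± 62.9 in hypo+ fetuses and 695 ± 38.0 in hypo fetuses (SD, n = 5 each), at -0.52 (SE 0.08, adjusted p 0.00376, held in 31 of 31).

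Of 29 other genes of myelin and mature oligodendrocytes 23 were called present, and by limma 0 passed in hypo+ against hypo, where 3.16% of all probe sets did, with a median of -0.02 and 13 positive. Mog, Mobp, Aspa, Gjb1, Gjc3 and Enpp6 were the 6 called absent. The smallest p were those of Plekhb1 at 0.34 (SE 0.12, adjusted p 0.119) and Tspan2 at -0.39 (SE 0.14, adjusted p 0.131). At an unadjusted p under 0.05 there were 4 of the 29, 3 of them higher, where 17% of all probe sets reached it. The summed signal of the 29 was 5339 to 5786 on hypo+ arrays, against 5367 to 6147 on hypo arrays.

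Against control, hypo+ had 1 of the 29 higher past the threshold, where 1.21% of all probe sets were. It was Bcas1, a marker of newly formed oligodendrocytes. Bcas1 averaged 172 ± 29.9 in hypo+ fetuses and 113 ± 16.0 in control fetuses (SD, n = 5 each), at 0.49 (SE 0.13, adjusted p 0.0420). The call held in 17 of 31 alternatives, and with the mean of the gene's probe sets the difference was 0.07. Of the 95 genes of the 5 lists 0 passed by limma in hypo against control and 0 in hyper against control. In that order 5 and 8 had an unadjusted p under 0.05, where 8.19% and 10.5% of all probe sets did.

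Markers of the ventral forebrain and of the dorsal cortex were measured on the same arrays. Of 15 genes of the ventral forebrain and of GABAergic neurons 14 were positive in hypo+ against hypo, where 50.3% of all probe sets were, with a median of 0.32. Of the 15, 2 rose, where 2.03% of all probe sets did: Dlx2 at 0.76 (SE 0.15, adjusted p 0.0107, held in 31 of 31 alternatives) and Ebf1 at 0.40 (SE 0.10, adjusted p 0.0321, held in 21 of 31). Their summed signal was 10943 to 15248 on hypo+ arrays, against 6890 to 11615 on hypo arrays, and 9282 to 11944 on hyper arrays, against 8890.0 to 13688 on control arrays. Six3 was the 1 of the 15 called absent, and Sp9 had no probe set under that symbol. In hypo against control 0 of these 15 were positive, with a median of -0.20.

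Of 10 dorsal cortex genes 1 was positive in hypo+ against hypo, where 50.3% of all probe sets were, with a median of -0.29. Fezf2, a factor of deep-layer neurons, fell by 0.80 on the log2 scale (SE 0.19, adjusted p 0.0259, held in 25 of 31 alternatives). Their summed signal was 15835 to 21574 on hypo+ arrays, against 14777 to 26084 on hypo arrays. The part of these regions in the Cnp, Mbp, Olig1 and Olig2 values was not tested. Of astrocyte genes 0 of 6 were positive, with a median of -0.22. By limma 0 of the 6 astrocyte, 6 endothelial, 5 microglial and 7 choroid plexus genes passed, where 3.16% of all probe sets did. In that order 3, 1, 2 and 0 had an unadjusted p under 0.05, where 17% of all probe sets did.

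Levels were also related across the 19 arrays, as 8 relations between brightest probe sets or with the mean of the 15 ventral genes. Each has p from 100000 permutations, adjusted over the 8. The permutations exchanged arrays across the 4 groups, so r and p also hold shifts that groups share. The r on deviations from group means, given below, have no p. Cnp went with Olig1 (Pearson's r 0.67, permutation p 0.0017, adjusted 0.00680; Spearman's rho 0.59, permutation p 0.00871, adjusted 0.0174), and r was 0.71 without the 2 arrays farthest from the median of Olig1. Cnp also went with Olig2 (r 0.58, permutation p 0.00862, adjusted 0.0172; rho 0.66, permutation p 0.00294, adjusted 0.0118), with r of 0.62 without the 2 farthest arrays. Olig1 and Olig2 themselves had no relation past the threshold (r 0.17, permutation p 0.484, adjusted 0.553; rho 0.19, permutation p 0.442, adjusted 0.506), with r of 0.31 without the 2 farthest arrays. Pdgfra and Olig1 had r of 0.08 (permutation p 0.735; rho -0.03, permutation p 0.916) and r of 0.02 without the 2 farthest arrays.

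The ventral mean went with Olig2 (r 0.70, permutation p 0.00079, adjusted 0.00632; rho 0.68, permutation p 0.00224, adjusted 0.0118) and with Cnp (r 0.62, permutation p 0.00432, adjusted 0.0115; rho 0.59, permutation p 0.00806, adjusted 0.0174). Without the 2 arrays farthest from its median, r was 0.58 for Olig2 and 0.62 for Cnp. For Olig1 r was 0.39 (permutation p 0.0963, adjusted 0.154; rho 0.46, permutation p 0.0487, adjusted 0.0780) and 0.36 without these 2 arrays. For Pdgfra r was 0.18 (permutation p 0.461, adjusted 0.553; rho 0.21, permutation p 0.386, adjusted 0.506), and 0.18 without them. These r hold the differences between groups. On deviations from group means r was 0.55 for Olig2 with the ventral mean, 0.33 for Cnp with it, 0.40 for Cnp with Olig1, 0.28 for Cnp with Olig2, -0.29 for Olig1 with Olig2 and 0.05 for Olig1 with the ventral mean. Over the 17 arrays left without both Y-positive ones, a setting added for these relations after their values were seen, r was 0.66 for Cnp with Olig1, 0.58 for Cnp with Olig2, 0.69 for Olig2 and 0.65 for Cnp with the ventral mean, and 0.04 to 0.37 for the other 4 relations.

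**Figure D4:**
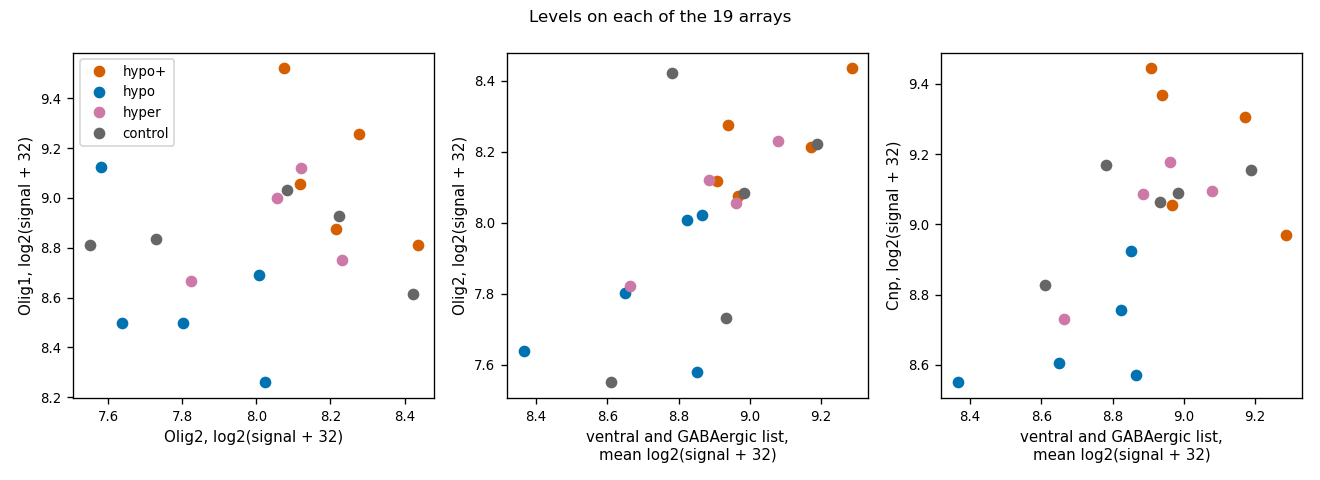
Log2(signal + 32) of Olig1 against Olig2, and of Olig2 and Cnp against the mean of 15 ventral forebrain and GABAergic genes, 1 point per array, coloured by group. Pearson's r over the 19 arrays is 0.17, 0.70 and 0.62 in that order.

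Among 24520 present probe sets with 1 symbol, genes whose pattern over the 19 arrays was much like that of Olig2 included Pard3b (r 0.88), Pappa (0.87), Klf12 (0.85) and Tmcc3 (0.85). For Olig1 the 5 most alike were Grm3 (r 0.92), Asxl3 (0.90), Acot7 (0.90), Ttc13 (0.87) and Fem1b (0.86), and for Cnp they were Rgs2 (r 0.88), Tmtc2 (0.87), Parp11 (0.87), Nap1l2 (0.87) and Lin7a (0.86). These r are a description, since the genes were picked as the highest of all.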

How the data were processed

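RNA of 19 fetal cortices was measured on Affymetrix arrays. The labels' protocols name a rat array, whereas the deposited probe sets and symbols are of mouse, and 1 of 20 arrays was removed by the authors for poor quality. The authors deposited probe set intensity values on a linear scale, already normalized, from 7.99 to 29808.5. The submitters' processing notes name MAS5 and RMA without saying which made these values. Per the file headers, another deposited table gives, for 6 contrasts, the authors' fold (a signed score, at least 1 or at most -1) and permutation p-values before and after adjustment, with a present or absent call for each probe set. These folds equalled differences of the log2 group means within 0.0072.

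The 64 array controls were left out, which left 45037 probe sets. Values were transformed to log2(value + 32) and fitted in limma 3.58.1 (R 4.3.3; lmFit and eBayes, group means of all 19 arrays, 15 residual degrees of freedom), with 6 contrasts and Benjamini-Hochberg adjustment over all 45037. Adjusted p values are two-sided and from limma except where a sentence names the authors' deposited table. The threshold was 0.05. The fit was tested on simulated data. The members, the gene lists and the rule for the genes named (list genes past the threshold, otherwise those of smallest p, and the 5 most similar patterns) were chosen with earlier results of these data known. Some genes the rule names are not reported here. Members were matched to the deposited symbols as they stand, and list genes to these or to older symbols given with the lists. A RefSeq gene table of assembly GRCm38.p6 gave the chromosomes and the gene between Olig1 and Olig2. Correlations between arrays were 0.976 to 0.993, and no 2 arrays were alike within noise, the smallest median absolute log2 difference being 0.105. Alternatives changed the pseudocount, the scaling, the probe sets, the samples, the weights and the prior.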

Additional observations from a re-analysis of the deposited data

Results flagged for a closer look

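3 values stood apart from the other arrays of their group by the gap to the nearest array over the range, among 92 groups of arrays looked at (23 probe sets in 4 groups). Chance marks about 1 in 20 groups. Nkx2-2 read 214.4 on hypo replicate 4, the highest of its group, where the other 4 hypo arrays had 22.6 to 75.3. On the same array the other members were mixed. Olig1 and Cnp 1437341_x_at were highest of the hypo group, at 526 and 454. Olig2, Cnp 1449296_a_at and Cnp 1418980_a_at were lowest, at 159, 127 and 84.2. The summed dorsal cortex signal was also lowest there, at 14777. Cspg4 1423341_at read 136.2 on control replicate 4, where the other 4 control arrays had 71.0 to 88.0. That array had the highest median of all arrays, 106. Mbp 1436201_x_at, a probe set called absent, read 32 on hypo replicate 4, where the other 4 hypo arrays had 18 to 21.9.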

How the results depend on the processing

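The count of 2 probe sets in hypo+ against hypo was 4 with quantile normalization, which added Olig2 and Cnp 1449296_a_at, and 1 with 1 value a gene from the brightest probe set or 1 from the mean of probe sets, where fewer features were tested and Mbp was not called. It was 2 to 3 when 1 array at a time was left out, with 3 without hypo replicate 4 (Olig1, adjusted p 0.0217) and without hypo+ replicate 2 (Cnp 1449296_a_at, adjusted p 0.0438). Cnp 1437341_x_at was called in 31 of 31 alternatives (log2 difference 0.38 to 0.61) and Mbp 1425263_a_at in 29 of 29 (0.37 to 0.61). The count of 1 in hypo+ against control was 0 with log2(value + 1), with either value a gene, with the compared arrays alone, with array weights, with trend and robust priors, and with both Y-positive arrays left out, and 0 to 1 when 1 array was left out. With each array centred on its median it was 1, but the probe set was Pdgfra 1421916_at in place of Mbp, and the median of all probe sets in that comparison was -0.11. The causes were not tested. The other 4 comparisons gave 0 of 23 in every alternative run, and the compared arrays alone could not be used for the difference of both responses. Counts over all probe sets in hypo+ against hypo were 913 higher and 508 lower, and 557 higher and 730 lower with arrays centred on their median, or 1166 higher and 1095 lower with quantile normalization, and 753 to 1692 in all when 1 array was left out. No called result reversed its direction. Of the 8 correlations, repeated on 4 other scales chosen after the data had been seen, that of Olig1 with the ventral mean moved most, to 0.50 with arrays centred on their median. With the replicate number as a block the counts were 2 and 0. The numbers did not pair the arrays, since deviations of same-numbered arrays correlated at a median of 0.0015 (-0.37 to 0.44 over 27 pairs) and 4 of 19 arrays went best with their own number. Dim probe sets, among them the 7 called absent, limit what could be detected.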

Other observations

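In hyper against control, by limma, 0 of the 29 other genes of myelin and mature oligodendrocytes passed adjustment and 4 had an unadjusted p under 0.05, where 10.5% of all probe sets reached it. The smallest p were those of Mag and Nfasc. Mag, a myelin-associated adhesion protein, averaged 59.0 ± 16.9 in hyper fetuses (SD, n = 4) and 83.3 ± 13.4 in control fetuses (SD, n = 5), a log2 difference of -0.35 (SE 0.11, adjusted p 0.214). Nfasc, an adhesion protein also made by neurons, was at 0.45 (SE 0.15, adjusted p 0.255). Among precursor surface genes Sema5a, a guidance protein, was at 0.37 (SE 0.13, adjusted p 0.282) in hyper against control. In hypo against control the smallest p of the precursor list was that of Cd9, at 0.23 (SE 0.08, adjusted p 0.457). Cd9 averaged 695 ± 38.0 in hypo fetuses and 589.5 ± 40.6 in control fetuses (SD, n = 5 each).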
